A study of Mus musculus with 8 samples.

Results

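The 10 genes described here encode brakes on mTORC1: the sestrins Sesn1, Sesn2 and Sesn3, Ddit4 (the protein REDD1), Tsc1 and Tsc2, Prkag2, Deptor, and the 4E-binding proteins Eif4ebp1 and Eif4ebp2. They were taken by symbol from a set proposed with earlier results of these data known, as was the stress list below, so their counts are a description. All 10 had a row among the 54232 genes of the expression table. Mouse cells of C57BL/6 background, labelled female germline stem cells (FGSCs, dividing germ cells of the ovary kept in culture), received the compound C28 (028 in the sample names) or the solvent DMSO for 3 h. RNA sequencing gave 3 DMSO and 3 C28 libraries. The labels name no allele or further agent, and do not say whether replicates were separate cultures, so the p-values describe the spread between libraries and that spread can be technical in part. H3K27ac was also profiled in 2 libraries, which were not analysed here for these genes.

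The kinase mTOR, in complex 1, drives protein synthesis and holds back autophagy, the process that the title of the series names. Sestrins bind the GATOR2 complex and keep the amino acid signal from the lysosome, REDD1 acts through the TSC complex, and TSC1 with TSC2 switches off RHEB, the direct activator of mTORC1. AMPK, the energy sensor to which PRKAG2 belongs, phosphorylates TSC2 and the mTORC1 subunit raptor, DEPTOR binds mTOR itself, and the 4E-binding proteins hold the cap-binding factor eIF4E until mTORC1 phosphorylates them. RNA levels do not show phosphorylation or protein amounts.

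The libraries held 16930212 to 19197376 reads on genes. Markers went both ways within lists. Ddx4 had 4 reads in all 6 libraries together, Dazl had 1, and Dppa3 and Pou5f1 had 0, which allows up to 3 of 108208382 reads (counting error only). Of 12 germline genes 6 averaged at least 10 normalized counts, among them Kit at 20987, Tex14 at 526 and Piwil2 at 85.0. Of 12 leukocyte and mast cell genes 9 did so, among them Gata2, Cpa3 and Ptprc at averages of 23743, 6753 and 7527, whereas the mast cell genes Fcer1a, Ms4a2 and Mcpt4 had 0, 3 and 4 reads. The summed leukocyte and mast cell markers ranged from 40188 to 41692 with DMSO and from 37621 to 40517 with C28, and the germline list from 21946 to 24847 and from 18402 to 24229. Both overlapped between groups, and both were lower with C28 in each same-numbered pair. Gata2 made up most of the leukocyte and mast cell sum, and Kit most of the germline sum. Their C28 to DMSO ratios by pair were 0.831, 0.927 and 0.928 for Gata2, and 0.974, 0.834 and 0.894 for Kit. Among the other genes, Ptprc, Fcer1g and Piwil2 were higher with C28 in each pair, and Zbtb16 was lower. The part of these marker sums in the results below was not tested. In bulk RNA, fewer cells of a type and less RNA per cell cannot be told apart.

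Among the 10 brakes, Sesn2 rose about 2-fold with C28, whereas the other sestrins and both TSC genes had intervals that included no change. Eif4ebp1 and Ddit4 rose, and Prkag2 fell, when limma compared same-numbered libraries as pairs. Without that pairing 1 of 10 passed at an adjusted p under 0.05 (limma, Benjamini-Hochberg over 19087 genes), where 0.136% of all genes were called. With the replicate number as a block, 3 rose and 1 fell, where 4.79% of all genes were called, 2.54% up and 2.25% down. EdgeR with the block made the same number of calls among the 10, where it called 7.09% of all genes, and DESeq2 without the block called 3 (Sesn2, Eif4ebp1 and Prkag2), where it called 1.38%. The median log2 fold change of the 10 was 0.010, beside 0.0045 for all genes tested. In the authors' deposited table Sesn2, Prkag2 and Eif4ebp1 had adjusted p-values of 4.31e-15, 0.00241 and 0.0196, and 1.53% of its genes with an adjusted p lay under 0.05. Ddit4 did not pass in that table, with a log2 fold change of 0.18 and an adjusted p of 0.999.

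**Figure D1:**
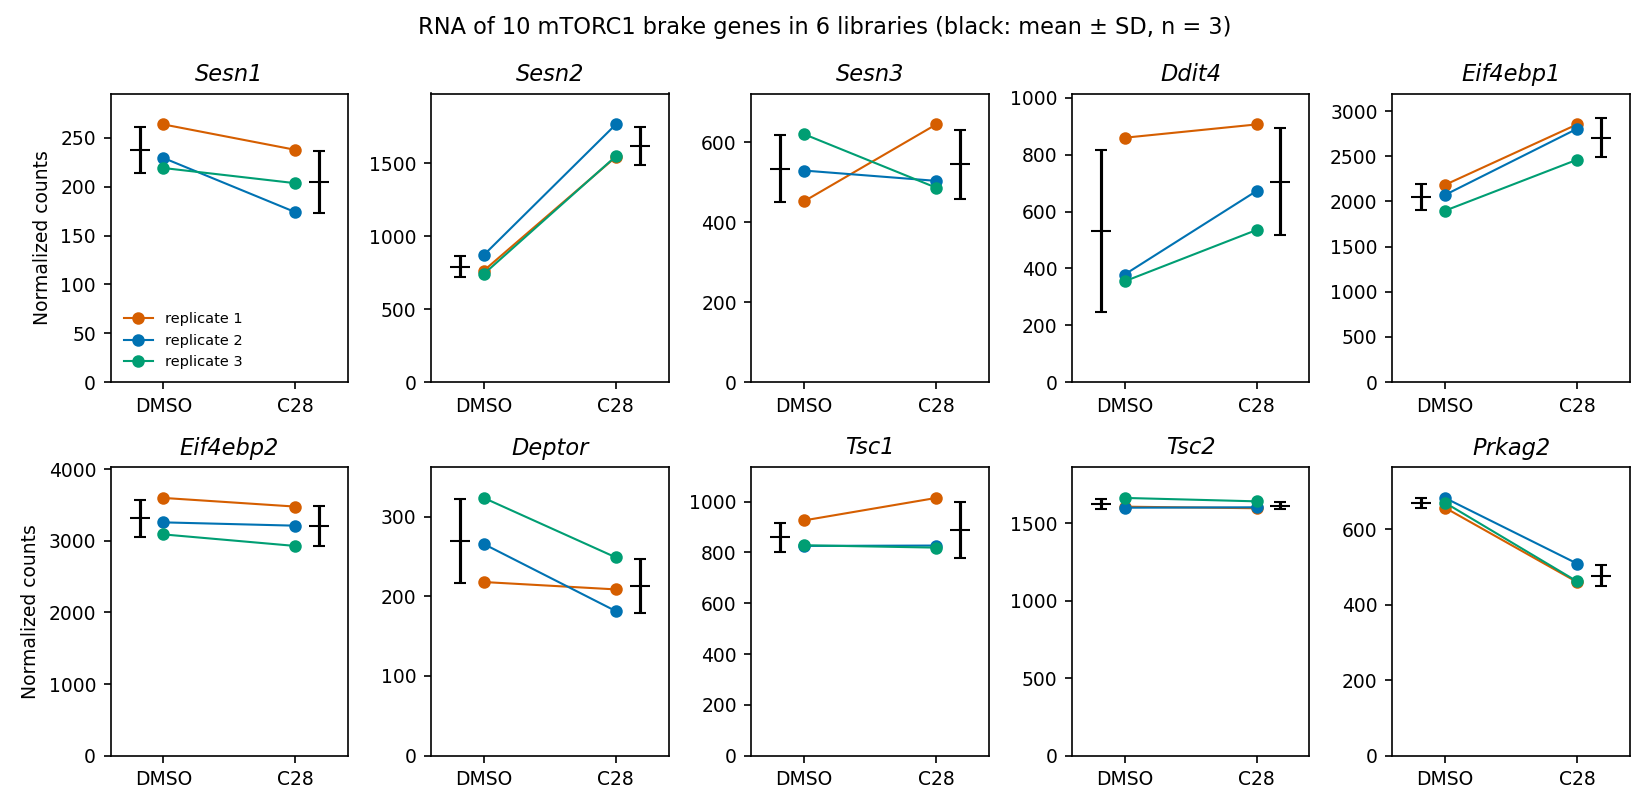
Normalized counts (vertical axes, from 0) of the 10 genes in each DMSO and C28 library, with lines joining libraries of the same replicate number and black bars for the mean ± SD of 3 libraries. Sesn2 and Eif4ebp1 are higher and Prkag2 is lower in all C28 libraries than in any DMSO library, while Ddit4 is high in replicate 1 of both groups.

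Sesn2, a leucine-sensing sestrin that is induced by several kinds of stress, was at 765, 872 and 741 normalized counts in DMSO replicates 1 to 3 and at 1543, 1766 and 1548 in C28 replicates 1 to 3. The groups did not overlap, and the lowest C28 library lay far above the highest DMSO library. The ratio within same-numbered libraries was 2.02, 2.03 and 2.09. The log2 fold change was 1.03 ± 0.09 (SE), a 2.04-fold rise with a 95% interval from 0.81 to 1.25 on the log2 scale and an adjusted p of 0.0110 by limma. With the replicate block the adjusted p was 5.22e-06, and Sesn2 ranked 6 of 19087 genes by p.

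The size of the Sesn2 change varied little with the libraries used, but its call without the block did. Leaving out DMSO replicate 1, DMSO replicate 3, C28 replicate 2 or C28 replicate 3 gave adjusted p-values of 0.0631, 0.103, 0.128 and 0.0857 by limma, with log2 fold changes from 0.97 to 1.06. The call was kept without DMSO replicate 2 (0.0481) and without C28 replicate 1 (0.0236). Without replicate 2 or replicate 3 in both groups the unblocked adjusted p by limma was 0.770 and 0.904, with log2 fold changes of 1.04 and 1.01. With the block the call was kept whichever pair was left out, with adjusted p-values by limma of 9.80e-05, 0.00905 and 0.00166 without replicates 1, 2 and 3.

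Sesn1, a sestrin known as a p53 target, was at 264, 229 and 219 normalized counts with DMSO and at 238, 174 and 204 with C28. The groups overlapped, and C28 was lower in all 3 same-numbered pairs. Its log2 fold change was -0.22 ± 0.15 (SE), with a 95% interval from -0.57 to 0.14 and an adjusted p of 0.830 by limma. With the block the adjusted p was 0.311.

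Sesn3, a sestrin known as a FOXO target, was at 452, 529 and 620 with DMSO and at 644, 503 and 486 with C28. It was higher with C28 in replicate 1 and lower in replicates 2 and 3, so the pairs went in opposite directions (ratios of 1.42, 0.951 and 0.784). Its mean log2 difference was 0.03 ± 0.15 (SE), with a 95% interval from -0.33 to 0.39 and an adjusted p of 0.992 by limma. Without replicate 1 in either group it was -0.21, with an adjusted p of 0.438 by limma, and 0.240 with the block.

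Relatives were also compared within each library, as the log2 ratio of one gene to another, which depends on transcript length and is read here only for its change. The Sesn2 to Sesn1 ratio was 1.53, 1.92 and 1.75 (log2) in DMSO replicates 1 to 3 and 2.69, 3.34 and 2.92 in C28 replicates 1 to 3, a mean difference of 1.25. The Sesn2 to Sesn3 ratio went from a mean of 0.58 ± 0.28 to 1.58 ± 0.29 (SD, n = 3), a difference of 1.00 with p = 0.1 in the exact two-sided permutation test. Both ratios were higher with C28 in 3 of 3 pairs with no overlap between groups. For each the exact p was 0.1, the smallest that 3 libraries against 3 allow, and 0.15 adjusted over the 6 ratios compared. The Sesn1 to Sesn3 ratio differed by -0.25 (exact permutation p = 0.4), with overlapping groups.

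**Figure D2:**
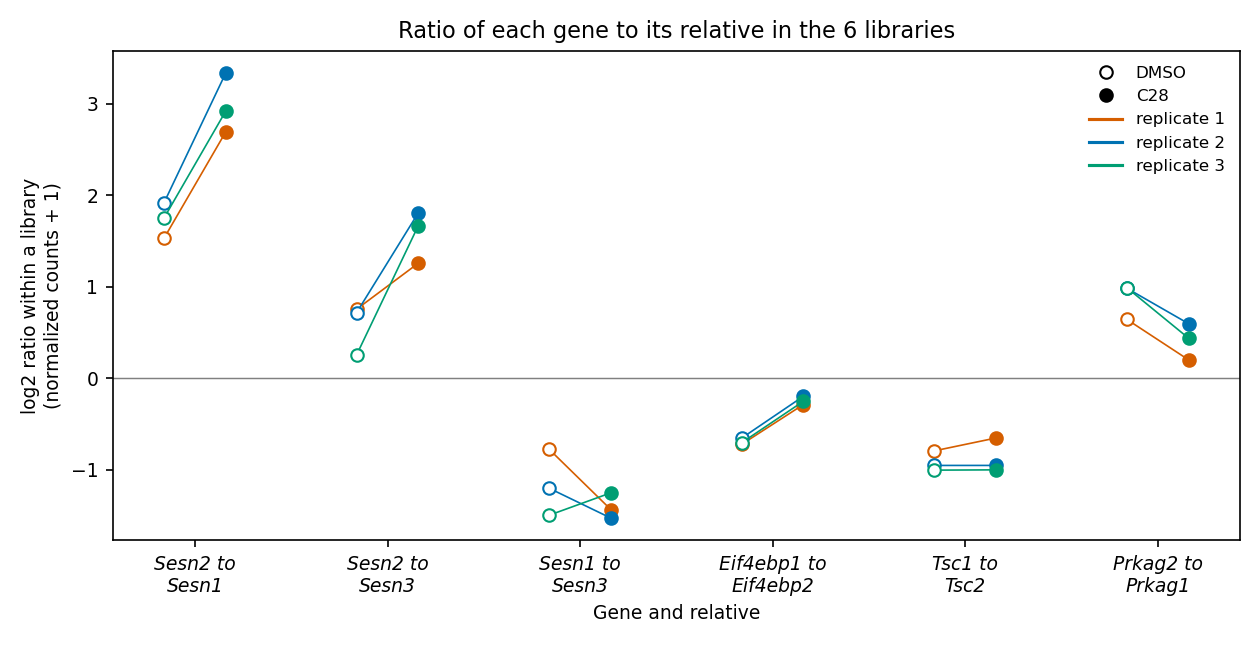
Log2 ratio of a gene to its relative within each library (vertical axis, normalized counts + 1), open for DMSO and filled for C28, with lines joining the same replicate number. Groups are apart for Sesn2 to Sesn1, Sesn2 to Sesn3, Eif4ebp1 to Eif4ebp2 and Prkag2 to Prkag1, and overlap for Sesn1 to Sesn3 and Tsc1 to Tsc2.

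Ddit4 encodes REDD1, a short-lived inhibitor of mTORC1 known to be induced by hypoxia, glucocorticoids and ATF4. It was at 860, 379 and 355 normalized counts in DMSO replicates 1 to 3 and at 907, 673 and 536 in C28 replicates 1 to 3. DMSO replicate 1 lay above C28 replicates 2 and 3, so the groups overlapped, although C28 was higher in each pair. The pair ratios were uneven, at 1.05 in replicate 1, 1.78 in replicate 2 and 1.51 in replicate 3.

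The log2 fold change of Ddit4 was 0.50 ± 0.35 (SE) without the block, with a 95% interval from -0.31 to 1.31 and an adjusted p of 0.827 by limma. With the block it rose 1.41-fold (SE 0.12 on the log2 scale, limma adjusted p 0.0372). That call was also made by edgeR with the block (0.00325) and not by DESeq2 with the block (0.206). Without replicate 1 in both groups the blocked log2 fold change was 0.71 (limma adjusted p 0.00535). The call was lost without replicate 2 (0.33, adjusted p 0.416) and without replicate 3 (0.45, adjusted p 0.275) by limma.

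Promoter sequence is shown for Ddit4 and for the sestrins, because Sesn2 rose and its relatives did not pass. RefSeq windows (GRCm38.p6) matched 8 of the 10 genes with 11 windows. Eif4ebp1 and Deptor had no window, so their promoters were not searched. The 250 bases before each start were searched on both strands for an ATF4 composite element (TGATGNAA), an antioxidant element (TGACNNNGC), a cyclic AMP element (TGACGTCA), an E-box (CACGTG), a forkhead site (GTAAACA), a hypoxia element (ACGTG, which also lies inside the E-box) and the p53 decamer. The windows below are printed 5′ to 3′ on the strand of the gene, with matches in capitals. They lie at chr4:132510457-132510706 (minus strand) for Sesn2, chr10:41887189-41887438 (plus strand, the downstream of 2 starts) for Sesn1, chr9:14276051-14276300 (plus strand) for Sesn3 and chr10:59951771-59952020 (minus strand) for Ddit4.
Sesn2: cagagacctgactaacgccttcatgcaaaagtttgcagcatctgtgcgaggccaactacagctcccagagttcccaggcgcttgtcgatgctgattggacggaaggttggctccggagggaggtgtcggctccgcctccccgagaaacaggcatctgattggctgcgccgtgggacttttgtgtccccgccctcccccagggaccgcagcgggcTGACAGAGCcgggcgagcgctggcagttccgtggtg
Sesn1: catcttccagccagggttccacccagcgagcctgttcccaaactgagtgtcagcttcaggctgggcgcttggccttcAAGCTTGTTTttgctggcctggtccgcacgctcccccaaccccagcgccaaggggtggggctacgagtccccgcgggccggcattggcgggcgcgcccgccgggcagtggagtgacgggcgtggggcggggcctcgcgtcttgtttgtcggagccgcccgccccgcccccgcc
Sesn3: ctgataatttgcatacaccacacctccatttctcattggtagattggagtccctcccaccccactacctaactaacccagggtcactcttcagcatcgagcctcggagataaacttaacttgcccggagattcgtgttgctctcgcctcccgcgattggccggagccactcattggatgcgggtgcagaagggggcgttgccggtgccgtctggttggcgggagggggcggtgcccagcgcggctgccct
Ddit4: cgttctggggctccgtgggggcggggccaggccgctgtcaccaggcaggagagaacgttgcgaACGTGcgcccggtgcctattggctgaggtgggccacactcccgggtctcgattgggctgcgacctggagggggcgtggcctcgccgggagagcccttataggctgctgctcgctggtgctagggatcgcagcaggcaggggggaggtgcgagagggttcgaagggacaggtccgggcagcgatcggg

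Sesn2 held 1 match to the antioxidant letters, beginning at position -36 from the start, and 10.2% of all 32851 windows of this length held at least 1. Ddit4 held the hypoxia letters at -187, as did Eif4ebp2 at -182, and 16.6% of all windows held them. The printed Sesn1 window held a p53 decamer at -173, found in 7.13% of all windows. The window of the upstream Sesn1 start held no match before that start. No ATF4 composite element, cyclic AMP element or E-box was found before the start in any of the 11 windows, against 3.45%, 1.55% and 6.02% of all windows. These are matches of letters only.

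Tsc1 and Tsc2 encode the 2 partners that turn RHEB off. Tsc2 was at 1606, 1600 and 1663 normalized counts with DMSO and at 1596, 1602 and 1640 with C28. These 6 values lay close together, and the log2 fold change was -0.01 ± 0.06 (SE) with a 95% interval from -0.15 to 0.13. Tsc2 overlaps Pkd1 in the RefSeq gene table, and it is not given whether reads were assigned by strand.

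Tsc1 was at 926, 826 and 828 with DMSO and at 1015, 827 and 819 with C28. Replicate 1 was the highest in both groups, and the groups overlapped. On the log2 scale C28 minus DMSO was 0.04 ± 0.11 (SE), with a 95% interval from -0.21 to 0.29. The adjusted p was 0.986 for Tsc1 and 0.995 for Tsc2 by limma, and 0.805 and 0.957 with the block. The Tsc1 to Tsc2 log2 ratio differed by 0.05 between groups (exact permutation p = 0.6).

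Prkag2, a gamma subunit through which AMPK senses AMP and ADP, was at 656, 682 and 670 normalized counts with DMSO and at 460, 509 and 462 with C28. Every C28 library lay below every DMSO library, and the pair ratios were 0.700, 0.746 and 0.689. The log2 fold change was -0.49 ± 0.08 (SE), or 0.712-fold, with a 95% interval from -0.69 to -0.29. By limma the adjusted p was 0.137 without the block and 0.00252 with it (edgeR 0.133 and 0.000127). DESeq2 called the fall without the block (adjusted p 0.00299) and with it (0.000663). With a pair left out the blocked adjusted p by limma was 0.0113 without replicate 1, 0.0934 without replicate 2 and 0.0721 without replicate 3.

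The related gamma subunit gene Prkag1 was at 420, 344 and 337 normalized counts with DMSO and at 400, 336 and 340 with C28, with overlapping groups (limma adjusted p 0.989). The Prkag2 to Prkag1 log2 ratio went from 0.87 ± 0.20 to 0.41 ± 0.20 (SD, n = 3), lower with C28 in 3 of 3 pairs, with an exact permutation p of 0.1 and an adjusted p of 0.15. Prkag3, the subunit of skeletal muscle, had 0 reads. Prkag2 is overlapped by 6 long noncoding RNA genes of RefSeq, and reads of overlapping genes may not be told apart.

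Deptor, which binds and inhibits mTOR, was at 218, 265 and 323 normalized counts with DMSO and at 209, 181 and 249 with C28. C28 was lower in each pair, with ratios of 0.958, 0.683 and 0.769, and the groups overlapped. Deptor had a log2 fold change of -0.33 ± 0.18 (SE), with a 95% interval from -0.76 to 0.10 and an adjusted p of 0.756 by limma. With the block the adjusted p was 0.143, and without replicate 1 in that fit 0.0519 by limma. The noncoding RNA gene Gm9920 overlaps Deptor.

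**Figure D3:**
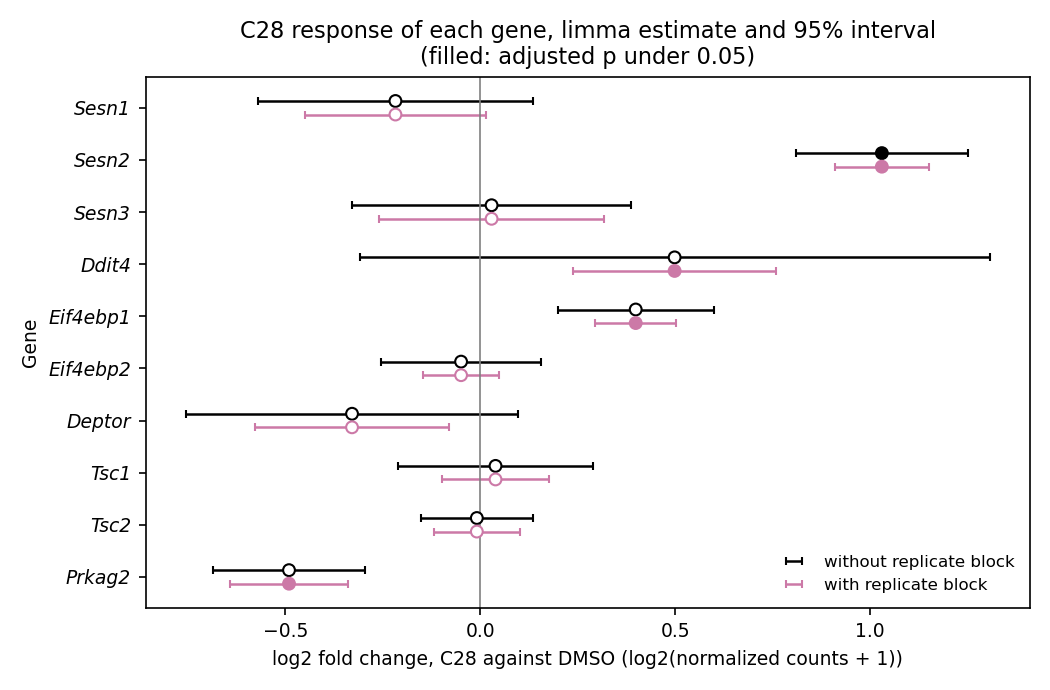
Log2 fold change of C28 against DMSO (horizontal axis) with the 95% interval from limma for each gene, in black without and in pink with the replicate block, filled where the adjusted p is under 0.05. Sesn2 is filled in both fits, and Ddit4, Eif4ebp1 and Prkag2 only with the block.

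Eif4ebp1 encodes 4E-BP1, which blocks cap-dependent translation while it is not phosphorylated, and is a known ATF4 target. It was at 2183, 2072 and 1897 normalized counts with DMSO and at 2852, 2803 and 2461 with C28. The groups did not overlap, and the pair ratios of 1.31, 1.35 and 1.30 were nearly equal. The log2 fold change was 0.40 ± 0.09 (SE), with a 95% interval from 0.20 to 0.60 and an adjusted p of 0.240 by limma. With the block Eif4ebp1 rose 1.32-fold (SE 0.05 on the log2 scale, limma adjusted p 0.000937), and DESeq2 called it also without the block (0.0242). The blocked limma call held without replicate 1 (0.00257) and without replicate 3 (0.0438), and was lost without replicate 2 (0.0961, limma).

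Eif4ebp2, the related 4E-binding protein, was at 3599, 3258 and 3090 normalized counts with DMSO and at 3478, 3212 and 2928 with C28. The groups overlapped, and the log2 fold change was -0.05 ± 0.09 (SE) with a 95% interval from -0.26 to 0.16 and an adjusted p of 0.966 by limma. The Eif4ebp1 to Eif4ebp2 log2 ratio was -0.72, -0.65 and -0.70 in DMSO replicates 1 to 3 and -0.29, -0.20 and -0.25 in C28 replicates 1 to 3. The ratio differed by 0.45 with no overlap, higher in 3 of 3 pairs, with an exact permutation p of 0.1 and 0.15 adjusted over 6 ratios.

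Libraries not overlapping between groups were seen for 3 of the 10 genes, Sesn2, Eif4ebp1 and Prkag2, where 14.6% of all genes tested had such values. The paralogues Ddit4l and Eif4ebp3 were near the limit of detection. Ddit4l, which encodes REDD2, had 17 reads over 6 libraries, from 0.935 to 1.91 normalized counts with DMSO and from 3.11 to 6.17 with C28 (limma adjusted p 0.680). Eif4ebp3 had 22 reads, with means of 3.81 ± 2.55 and 3.46 ± 2.60 (SD, n = 3 each).

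Replicate 1 differed from replicates 2 and 3 in both groups, so the brakes were compared between them with the treatment in the model. Of the 10 genes 3 were higher in replicate 1 and 0 were lower at an adjusted p under 0.05 by limma, where 19.6% of all genes were called. Ddit4 averaged 884 normalized counts in the 2 libraries of replicate 1 and 485 in the other 4, a log2 difference of 0.91 ± 0.13 (SE) with an adjusted p of 0.000665. Tsc1 averaged 971 and 825 (0.23 ± 0.07 SE, limma adjusted p 0.0280) and Eif4ebp2 3539 and 3122 (0.18 ± 0.06 SE, limma adjusted p 0.0398). For Ddit4 this difference of 0.91 stands beside one of 0.50 between C28 and DMSO, and the gap between the 2 was not tested. Sesn2, at -0.09 ± 0.08 (SE), did not pass (limma adjusted p 0.523).

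The 9 fibroblast and feeder cell markers, all matched and 6 of them averaging at least 10 normalized counts, summed to 1070 and 1121 in the DMSO and C28 libraries of replicate 1 and to between 1726 and 2811 in the other 4. Their sum ranged from 1070 to 2700 with DMSO and from 1121 to 2811 with C28. Dcn, a matrix proteoglycan, averaged 1353 and made up most of the sum, Pdgfrb averaged 160, Pdgfra 121 and Col1a2 111, and the matrix genes Lum and Postn had 2 reads each over all 6 libraries. Leukocyte and mast cell genes also differed in replicate 1, in both directions. Hdc was at 1.87 and 2.08 in its DMSO and C28 libraries and from 97.6 to 117 in the other 4. Cd68 was at 165 and 182 there and from 439 to 654 in the other 4, whereas Ptprc and Fcer1g were highest in replicate 1 of both groups. The part of these marker differences in the levels of Ddit4, Tsc1 and Eif4ebp2 was not tested.

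The rest of the pathway was read from 5 lists. Of 11 genes of the mTOR complexes, 27 of the amino acid sensing branch, 11 tested AMPK genes, 17 of the growth factor branch and 14 mTORC1 outputs, 0 passed without the block in limma, with 1, 2, 0, 2 and 0 at an unadjusted p under 0.05. Together 6.25% of these 80 genes lay at an unadjusted p under 0.05, beside 7.83% of all genes tested, so their share was near the background. In limma with the block these shares were 22.5% and 18.2%, and the gap between them was not tested. EdgeR and DESeq2 without the block also called 0 in each of these lists. Median log2 fold changes were -0.06, -0.02, -0.02, 0.0093 and -0.04. Mtor, the kinase itself, was at 1168 ± 73.1 and 1122 ± 116 normalized counts (SD, n = 3 each), and Rptor, the raptor subunit, at 1609 ± 241 and 1569 ± 235.

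With the block 3 of these 80 genes passed in limma, or 3.75%, below the 4.79% of all genes, so the count is not a result about the pathway. They are named by the rule for called genes. Telo2, which helps assemble mTOR complexes, fell from 1056 ± 80.4 to 868 ± 131 normalized counts (0.817-fold, adjusted p 0.0268). Castor1, an arginine sensor that like the sestrins binds GATOR2, fell 0.791-fold with the block (limma adjusted p 0.00746). Its values were 849, 1698 and 1676 with DMSO and 645, 1429 and 1294 with C28, so replicate 1 was low in both groups. Pik3cb, a catalytic subunit of PI3K, rose from 406 ± 39.7 to 508 ± 26.6 with the block (1.25-fold, limma adjusted p 0.0313).

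**Figure D4:**
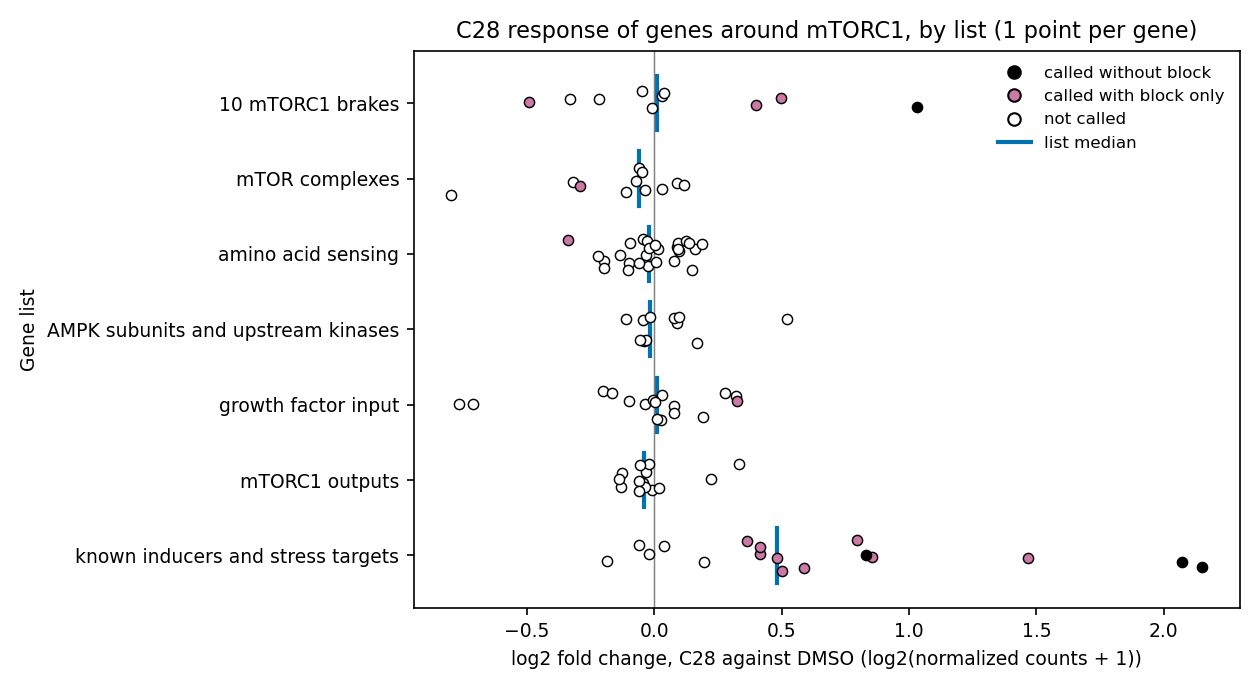
Log2 fold change of C28 against DMSO (horizontal axis) for each tested gene, 1 point per gene, by list, with blue bars for list medians, black points called by limma without the block and pink points called only with it. The stress list has its median at 0.48, and the lists of mTOR complexes, amino acid sensing, AMPK, growth factor input and outputs have theirs between -0.06 and 0.0093.

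Stress regulators and targets, several of which are known to induce sestrins, REDD1 or 4E-BP1, made up the last list. Of 17 genes 3 rose, 0 fell and 14 did not pass, where 0.121% of all genes rose, and with the block 12 rose and 0 fell, where 2.54% of all genes rose. The median log2 fold change was 0.48, beside 0.0045 for all genes. Atf4, which drives the integrated stress response, was at 7138, 8022 and 7164 normalized counts with DMSO and at 12112, 15190 and 12577 with C28. It rose 1.78-fold (limma adjusted p 0.0366, and 5.22e-06 with the block). Trib3, a pseudokinase that binds AKT, rose 4.44-fold from 298 ± 52.3 to 1329 ± 268, and Chac1, which degrades glutathione, rose from 51.5 ± 10.5 to 221 ± 49.3. With the block Mdm2, the ubiquitin ligase of p53, rose 1.39-fold from 1587 ± 58.8 to 2216 ± 136, and Cebpg, a partner of ATF4, rose from 1031 ± 91.0 to 1548 ± 127 (limma adjusted p 0.000418 and 0.000609). The 5 genes that did not pass with the block were Trp53, Foxo4, Nfe2l2, Hif1a and Epas1. Nfe2l2 was at 2071 ± 147 and 1821 ± 79.2 normalized counts (0.880-fold, limma adjusted p 0.0633 with the block). Epas1 had 11 reads over 6 libraries.

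Genes with the pattern nearest to that of 3 brakes were found among 10578 genes averaging at least 50 normalized counts, by the Euclidean distance between centred log2 values over the 6 libraries. Nearest to Sesn2 were Slc48a1, a haem transporter, at 0.18, Atf4 at 0.27, the gene model Gm35037 at 0.27, Ubtd1 at 0.30 and Slc1a4, a transporter of neutral amino acids, at 0.35. Slc48a1 averaged 2687 normalized counts with DMSO and 5487 with C28, and Slc1a4 936 and 1997. Nearest to Ddit4 were Pycr1, an enzyme of proline synthesis, at 0.25, Rhbdd1 at 0.32 and Efcab11 at 0.34, and nearest to Eif4ebp1 were Sh3bp5l at 0.072, Plekhf2 at 0.084 and E330020D12Rik at 0.0999. Pycr1 averaged 252 with DMSO and 359 with C28. These likenesses rest on 6 libraries and were picked from all these genes, so they are a description.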

How the data were processed

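Sample titles gave the groups and replicate numbers. Members and gene lists were chosen with earlier results of these data known. The deposited values are signal, gene read counts that the authors divided by 1 size factor per library: 100% of them lay within 0.01 of a whole number of reads. The authors' deposited table also holds their log2 fold change and adjusted p-value. Build mm9, Bowtie2 and Cufflinks 2.2.1 are named, per the submitters' processing notes, and the read counter is not given in the sources used here. Peak lists were not used here, since the gene tables at hand are of GRCm38.p6.

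Of all rows, 19087 had values of 1 or more in 3 or more libraries. They were tested by limma 3.58.1 (R 4.3.3) on log2(value + 1), which understates changes of low genes, with an intensity trend and Benjamini-Hochberg adjustment at 0.05. On recovered reads edgeR 4.0.16 called 28 genes and DESeq2 1.42.0 called 182. These scripts were first tested on simulated data. Over 10578 genes, deviations from group means correlated between same-numbered libraries at 0.84, 0.68 and 0.70 for replicates 1 to 3, so the numbers were taken as pairs from the data. DMSO replicate 2 with C28 replicate 3 gave 0.54 and DMSO replicate 3 with C28 replicate 2 gave 0.41, so their pairing is less clear. Replicate 1 lay apart in both groups. With 3 libraries per mean, its offset raises all correlations among replicates 2 and 3, the same-numbered ones included. No replicates agreed within counting noise. Genes named from the lists were the paralogues, Mtor, Rptor, Atf4 and up to 5 called genes per list and direction, by p in either limma fit. The stress genes that did not pass with the block were named outside this rule, after seeing the data.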

Additional observations from a re-analysis of the deposited data

How the results depend on the processing

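Without the block 26 genes and 1 brake were called. Other tests or the block gave 182 genes and 3 brakes (DESeq2), 914 and 4 (limma, replicate block), 1354 and 4 (edgeR with replicate block) and 739 and 3 (DESeq2 with replicate block, chosen after seeing the data). EdgeR without the block, pseudocounts of 0.5 and 5, no filter, a filter of 10 and TMM scaling gave 26 to 30 genes and 1 brake, Sesn2. Leaving out a library, or a replicate number from both groups, gave 0 to 90 genes and 0 to 1 brakes. At 0 genes, without C28 replicate 2, replicate 2 or replicate 3, limma had 1207, 642 and 722 genes at an unadjusted p under 0.05. With the replicate block and a pair left out, 854, 47 and 191 genes and 4, 1 and 2 brakes were called without replicates 1, 2 and 3. In limma and edgeR the block changed the call of Ddit4, Eif4ebp1 and Prkag2 and of no other brake, and in DESeq2 it changed no brake's call.

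Estimates near 0 changed sign with a library left out, none of them called. Over these settings Sesn3 ranged from -0.21 (replicate 1 left out) to 0.22, Eif4ebp2 from -0.11 to 0.014 (C28 replicate 3 left out), Tsc1 from -0.061 (C28 replicate 1 left out) to 0.094, Tsc2 from -0.021 to 0.0089 (DMSO replicate 3 left out), and the Tsc1 to Tsc2 log2 ratio from -0.060 (C28 replicate 1 left out) to 0.11. With the replicate block and replicate 1 left out, Sesn3 was at -0.21 and Tsc1 at -0.0068. The cause of these changes was not tested. The H3K27ac alternatives were not run. Depth limited Ddit4l, Eif4ebp3 and Prkag3, with 17, 22 and 0 reads.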
